A study of Mus musculus with 9 samples.

Results

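The genes described here are the 3 mouse superoxide dismutases, Sod1, Sod2 and Sod3, together with Ccs, the copper chaperone that loads Sod1. Their members on the array were all probe sets that the platform's annotation assigns to 1 of these symbols and to no other gene, which gave 12 of 45101 probe sets. There were 5 for Sod1, 4 for Sod2, 2 for Sod3 and 1 for Ccs, and no measured value entered this choice. A probe set is a group of short oligonucleotides that reads a stretch of a transcript, so the probe sets of a gene need not read the same transcripts or the same part of them. For 2 of the Sod1 probe sets, 1459976_s_at and 1447761_x_at, the annotation used here names no source sequence.

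RNA was measured on 9 mouse whole-genome oligonucleotide arrays, in 3 groups of 3. The first group was total spinal cord of wild-type mice, the second motor neurons of wild-type mice and the third motor neurons of SOD1-mutant mice. The neurons came from laser capture microdissection, in which picked cells are cut from a section with a laser. Mutant SOD1 causes a familial form of amyotrophic lateral sclerosis, in which motor neurons are lost, so the members include the mouse gene of that enzyme. The labels do not name the mutant allele or say whether it is a transgene, so whether these mouse probe sets read its RNA is not known here. Every title carries the code D28, which the labels do not explain, and they state no age, disease stage or way of recognising neurons, and cord of mutant mice was not analysed here. They call the tissue total cord in the description and ventral cord in the source field, and do not say whether arrays share an animal, so p-values rest on the spread between arrays, some of which may be technical.

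Superoxide, a by-product of respiration and of some oxidases, is turned by dismutases into hydrogen peroxide and oxygen. Sod1 is the copper and zinc enzyme of the cytosol and the space between the mitochondrial membranes, Sod2 the manganese enzyme of the mitochondrial matrix, and Sod3 a secreted copper and zinc enzyme bound to the cell surface and matrix. Ccs hands copper to newly made Sod1 and helps to form its internal disulfide bond. The peroxide that these enzymes make is then removed by catalase, glutathione peroxidases and peroxiredoxins.

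The promoters of Sod1 and Sod2 are shown because the brightest probe sets of both genes were higher in motor neurons than in cord. They are the RefSeq windows from 250 bases before to 50 bases after the gene start on GRCm38.p6, at chr16:90220512-90220811 for Sod1 and chr17:13007589-13007888 for Sod2, both on the plus strand. Of the 4 members, 2 had a window in the table used. Capitals mark matches on either strand to the GC box GGGCGG, the TATA box TATAAA and the CCAAT box CCAAT.
Sod1: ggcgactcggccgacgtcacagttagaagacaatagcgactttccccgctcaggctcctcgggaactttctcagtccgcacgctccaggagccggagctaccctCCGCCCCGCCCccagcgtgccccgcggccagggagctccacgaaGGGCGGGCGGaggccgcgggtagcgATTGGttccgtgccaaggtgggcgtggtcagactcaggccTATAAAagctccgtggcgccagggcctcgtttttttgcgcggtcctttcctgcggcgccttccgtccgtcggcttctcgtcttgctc
Sod2: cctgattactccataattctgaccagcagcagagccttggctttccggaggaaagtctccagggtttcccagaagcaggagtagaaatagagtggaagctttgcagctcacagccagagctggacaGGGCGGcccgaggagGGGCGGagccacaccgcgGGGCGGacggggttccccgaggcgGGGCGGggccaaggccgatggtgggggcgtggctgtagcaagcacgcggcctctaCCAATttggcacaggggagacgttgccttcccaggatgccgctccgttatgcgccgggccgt
Both windows held 4 GC boxes, those of Sod1 in 2 overlapping pairs, and a GC box was present in 35.88% of 32544 promoter windows of the same length. Both held 1 CCAAT box, which 37.36% of windows held. Only the Sod1 window, of these 2, held a TATA box, at 32 bases before the start, a motif present in 13.57% of windows. The core of the antioxidant response element, searched as TGACNNNGC on both strands and left in lower case, had 1 match for Sod1, none for Sod2, and a match in 12.41% of windows. GC content was 66.67% for Sod1 and 64.33% for Sod2, against a median of 53% over all windows. These matches describe the letters and are not evidence of a bound factor.

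Values below are signal intensities on the authors' scale, on which every array has the same trimmed mean. Background was set per array from control probe sets for bacterial transcripts and lay at 131 to 244, and 59.6% to 73.7% of probe sets of an array were above it. Within groups, arrays correlated at 0.976 to 0.983 (cord), 0.935 to 0.960 (wild-type neurons) and 0.931 to 0.958 (mutant neurons) over probe sets, which do not replicate each other. The captured arrays carried much less signal from the 5′ part of control transcripts: for Gapdh the 3′ to 5′ log2 ratio was -0.28 ± 0.01 on cord, 4.03 ± 0.44 in wild-type and 4.49 ± 0.15 in mutant motor neurons (SD, n = 3). The position of the members' probe sets along their transcripts was not used here, so what this loss did to each of them was not tested. Motor neuron identity was checked on markers. Against cord, wild-type motor neurons had 9 of 11 tested motor neuron markers higher and none lower, where 31.1% and 36.1% of all genes were. The higher ones included the transcription factor genes Mnx1 (log2 change 4.49 ± 0.17, SE) and Isl1 (3.64 ± 0.30). Chat, the acetylcholine-making enzyme, was not called (0.61 ± 0.28, limma adjusted p = 0.0816). Of markers of astrocytes, oligodendrocytes, microglia and vessels, 39 of 40 tested were lower, against 36.1% of all genes tested. All 7 tested markers of inhibitory interneurons and all 8 of excitatory and dorsal horn neurons were lower too. Aif1 of microglia was below background on all 6 motor neuron arrays. Some of these markers, such as Aif1 and C1qc, had enough mean signal to be tested only through cord, so they had to come out lower.

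**Figure D1:**
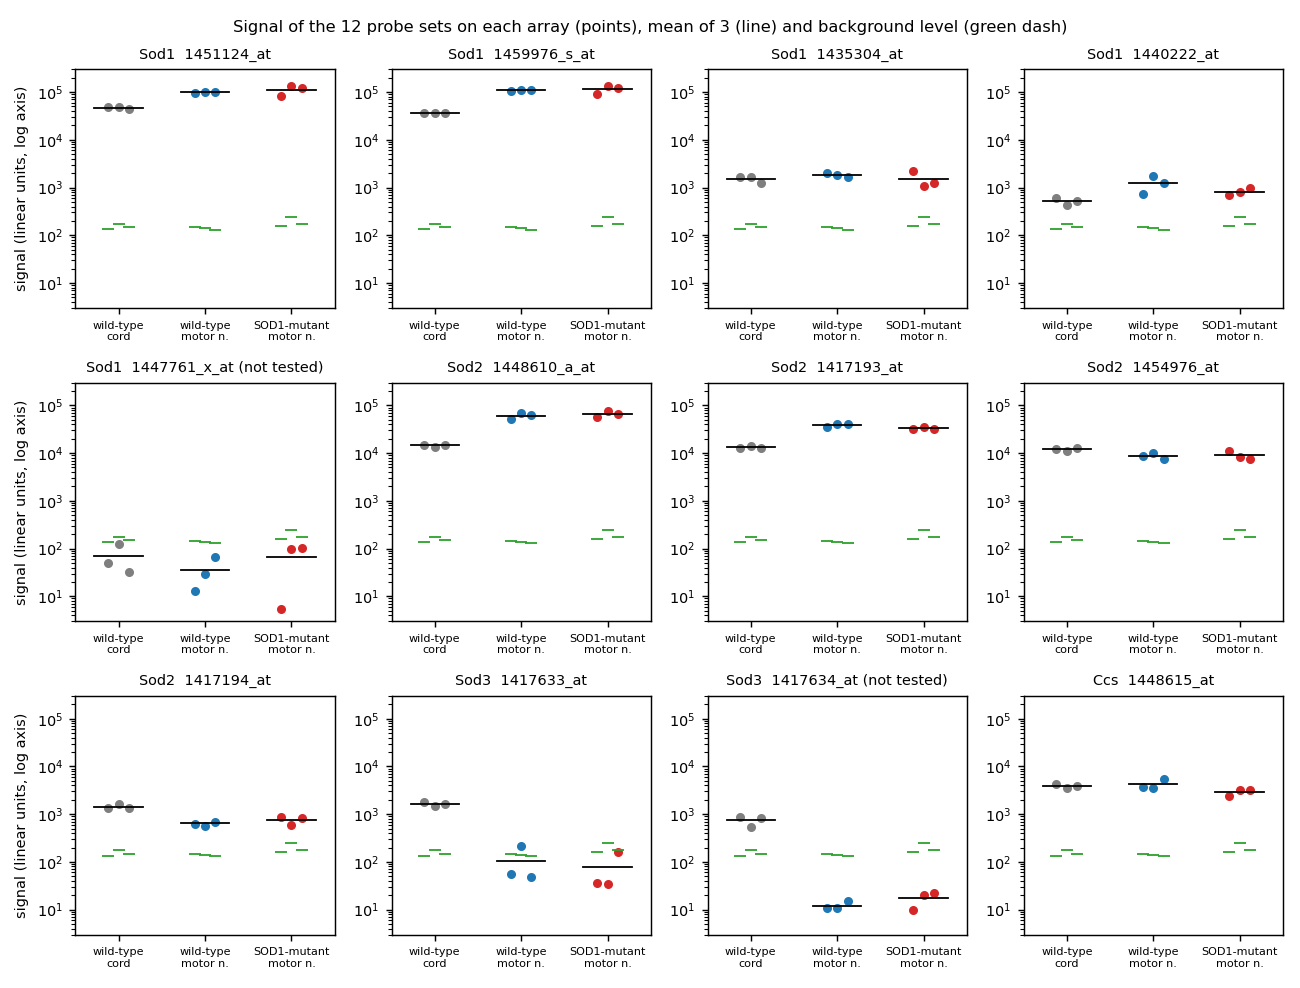
Signal intensity (log axis) of each of the 12 probe sets on each of the 9 arrays: points are arrays in replicate order, black lines the mean of 3, green dashes each array's background level. Sod1 1451124_at and 1459976_s_at and Sod2 1448610_a_at and 1417193_at sit higher on all 6 motor neuron arrays than on cord arrays. Sod2 1454976_at, also bright, sits lower on all 6. Both Sod3 probe sets fall to or near background there, and Sod1 1447761_x_at lies below background on all 9 arrays.

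Wild-type motor neurons were first compared with cord of the same genotype, which asks how the captured cells differ from the tissue around them. Sod1 and Sod2 were higher on their brightest probe sets, 2.11-fold and 4.21-fold, Sod3 fell to or near background, and Ccs was not called. Of the 12 probe sets, 10 had enough signal to be tested, and Sod3 1417633_at was among them only through its signal in cord. A probe set was called where limma's adjusted p over all 27022 tested probe sets was under 0.05, and 5 of the 10 were called higher and 3 lower. Over all tested probe sets 24.0% were called higher and 41.5% lower, so 65.5% were called in all. The arrays of the groups did not overlap for 8 of the 10, with 71.9% over all tested. The median log2 change of the 10 was 0.67, against -0.35 over all tested. In RNA from many cells, fewer cells of a type and less RNA per cell cannot be told apart.

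Sod1 is the mouse gene of the enzyme that the mutant label names. Its brightest probe set, 1451124_at, read 48032, 49249 and 45081 on cord arrays, 96983, 101356 and 101398 in wild-type motor neurons, and 84714, 131987 and 120343 in mutant motor neurons. All 6 motor neuron arrays lay above all 3 cord arrays, and the wild-type neuron values fell within the wider range of the mutant ones. The log2 change from cord to wild-type motor neurons was 1.07 ± 0.07 (SE, adjusted p = 1.89e-06, 95% interval 0.93 to 1.22).

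Sod1 1459976_s_at read 36705, 36365 and 36034 on cord arrays, 106588, 112179 and 110545 in wild-type motor neurons, and 93031, 132750 and 119180 in mutant motor neurons. The order of the groups was the same as on 1451124_at, with no overlap between cord and neurons. It was 3.02-fold higher in wild-type motor neurons (1.59 ± 0.06, adjusted p = 2.62e-07). Within arrays this probe set exceeded the change of 1451124_at by 0.52 on the log2 scale, with no overlap between groups (exact permutation test, two-sided, p = 0.1, below which 3 arrays against 3 cannot go, adjusted p = 0.204 over 51 probe set pairs).

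The dimmer Sod1 probe sets differed from these. Sod1 1440222_at read 591, 432 and 522 on cord arrays, 728, 1766 and 1259 in wild-type and 686, 806 and 971 in mutant motor neurons. It rose by 1.17 ± 0.33 in wild-type motor neurons (adjusted p = 0.0124), with 1 wild-type neuron array above the rest. Sod1 1435304_at read 1658, 1687 and 1239 on cord arrays, 2024, 1839 and 1654 in wild-type and 2230, 1072 and 1272 in mutant motor neurons. Its groups overlapped and it was not called (0.27 ± 0.18, adjusted p = 0.206), although it was called higher after quantile normalization (0.98) and after centring arrays on their medians (1.18). The fifth, 1447761_x_at, was not above background on any array, with values from 5.37 to 127, and was not tested.

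Sod2, the mitochondrial enzyme gene, was read by 4 probe sets, of which 2 rose and 2 fell. Sod2 1448610_a_at read 15120, 13455 and 14901 on cord arrays, 51952, 68146 and 64044 in wild-type motor neurons, and 57973, 74814 and 66786 in mutant motor neurons. The lowest neuron array was more than 3 times the highest cord array, and the neuron groups overlapped. The log2 change from cord to wild-type motor neurons was 2.07 ± 0.11 (adjusted p = 9.35e-07).

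Sod2 1417193_at read 12943, 14127 and 12853 on cord arrays, 34642, 41428 and 40742 in wild-type motor neurons, and 32779, 35355 and 32806 in mutant motor neurons. It too separated all neuron arrays from cord, with a 2.92-fold rise in the wild type (1.54 ± 0.09, adjusted p = 1.70e-06).

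The other 2 moved the other way. Sod2 1454976_at read 12402, 11090 and 12951 on cord arrays, 8893, 9874 and 7671 in wild-type and 11038, 8395 and 7681 in mutant motor neurons, a fall in the wild type of 1.38-fold (-0.47 ± 0.11, adjusted p = 0.00632) that turned into a rise of 0.44 when arrays were centred on their medians (adjusted p = 0.0127). Sod2 1417194_at read 1315, 1622 and 1356 on cord arrays, 635, 576 and 700 in wild-type and 889, 587 and 835 in mutant motor neurons. It was 2.21-fold lower in wild-type motor neurons (-1.14 ± 0.20, adjusted p = 0.00087), but was not called after quantile normalization (-0.26) or centring (-0.23).

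Within arrays, all 6 pairs of Sod2 probe sets changed unequally between cord and wild-type motor neurons with no overlap, by 0.53 to 3.21 on the log2 scale (exact p = 0.1 each, adjusted p = 0.204). The pair of 1448610_a_at and 1454976_at differed by 2.54, and by 2.39 to 2.67 under the other scalings and pseudocounts and without each array. The pair of 1454976_at and 1417194_at differed by 0.67, which turned to -0.36 after quantile normalization. Of the 10 Sod1 pairs, 6 did not overlap. The change of Sod2 thus depended on the probe set read.

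Sod3, the secreted enzyme gene, was at or near background in captured neurons. Sod3 1417633_at read 1756, 1481 and 1649 on cord arrays, 55.2, 210 and 49.0 in wild-type motor neurons, and 36.5, 33.7 and 162 in mutant motor neurons. Only the wild-type neuron array at 210 stood above its background, of the 6 neuron arrays. It was called lower in wild-type motor neurons (log2 change -3.95 ± 0.47, adjusted p = 0.000101), but its size rests on values mostly below background, and having passed the filter on cord alone it had to differ. Sod3 1417634_at read 869, 532 and 833 in cord and 9.96 to 22.5 on the 6 neuron arrays, all below background. It passed no filter on mean signal and was not tested. Against the background level it was at least 4.70-fold lower in wild-type motor neurons.

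Ccs, the chaperone gene, read 4267, 3546 and 3829 on cord arrays, 3763, 3527 and 5540 in wild-type motor neurons, and 2386, 3153 and 3266 in mutant motor neurons. The wild-type groups overlapped, and the change of 0.11 ± 0.18 was not called (adjusted p = 0.592, 95% interval -0.29 to 0.52). Without the wild-type neuron array at 5540 the change was -0.09. Ccs was called higher after quantile normalization (0.44, adjusted p = 0.0487) and after centring (1.02, adjusted p = 0.000858). It was also called higher with array weights (0.49, adjusted p = 0.000355).

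**Figure D2:**
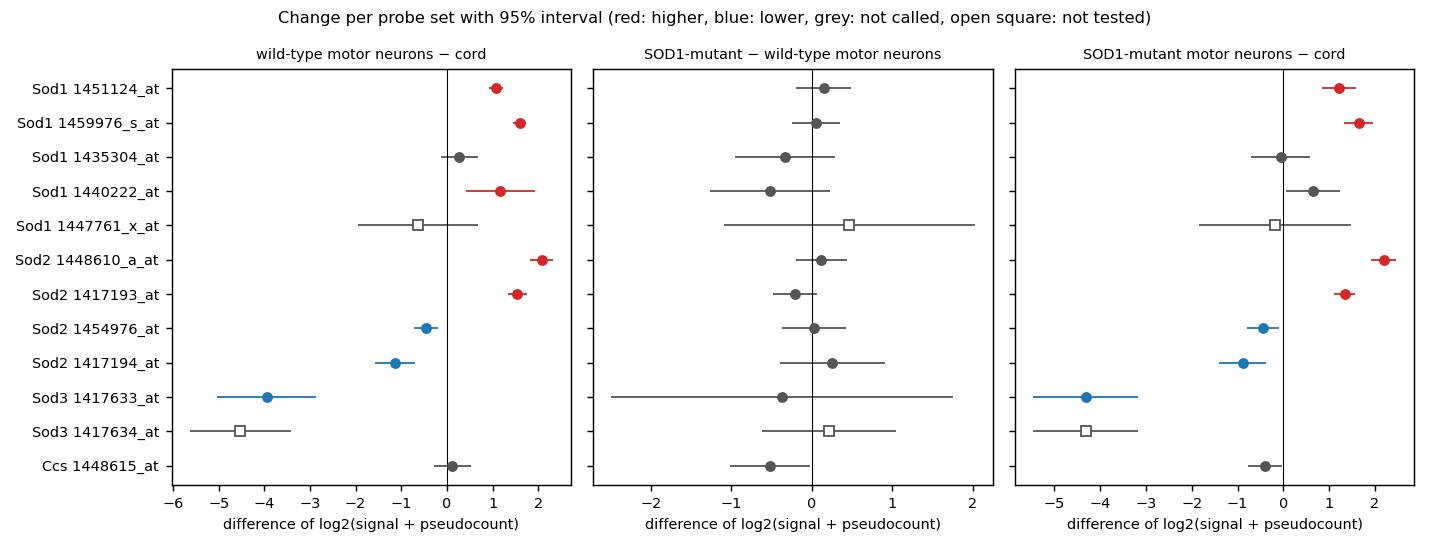
Difference of log2(signal + pseudocount) for each probe set in the 3 comparisons, with 95% intervals; red is called higher, blue called lower, grey not called, and open squares were not tested. Called probe sets are found in the 2 comparisons with cord, and intervals between the neuron groups cross 0 for all but Ccs.

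The scaling of the arrays set part of these sizes. The median change over all tested probe sets was -0.35 on the authors' scale, 0.13 after quantile normalization and 0.56 after centring. The change of Sod1 1451124_at was 1.07, 0.56 and 1.98 in the same order, called higher and above that median each time. Ccs, at 0.11, 0.44 and 1.02, was also above the median each time. Sod2 1454976_at, at -0.47, -0.62 and 0.44, was below the median each time, though its sign turned under centring.

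**Figure D3:**
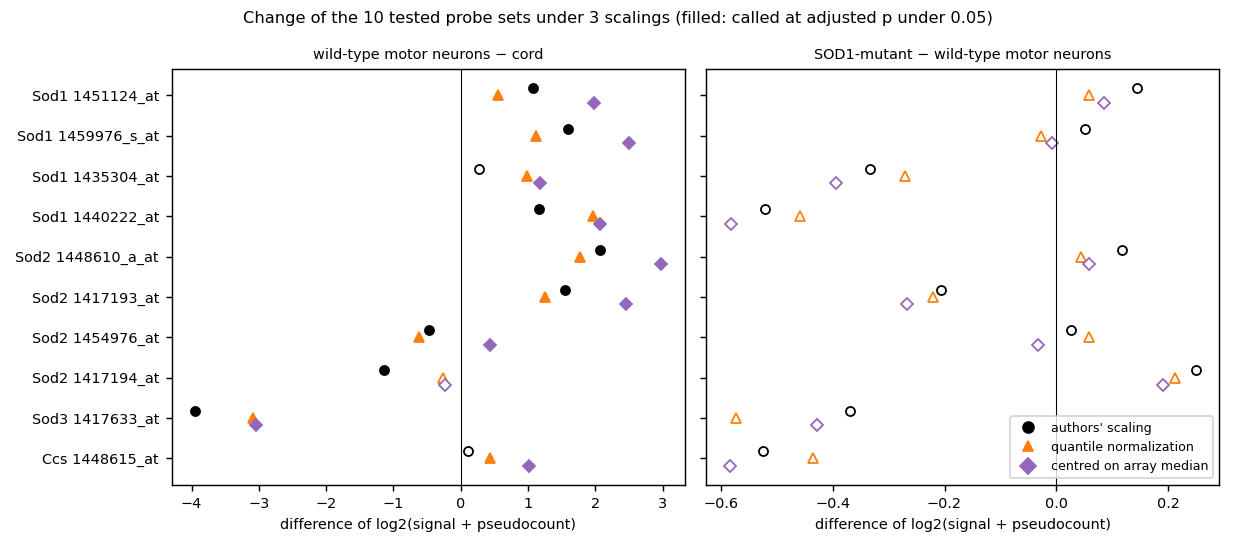
Difference of log2(signal + pseudocount) of the 10 tested probe sets on the authors' scale (circles), after quantile normalization (triangles) and after centring arrays on their medians (diamonds); filled symbols were called. Sod2 1454976_at turns from -0.47 to 0.44 under centring against cord, and no probe set is called between the neuron groups under any of the 3.

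A ratio between genes on the same array does not move with that array's scaling factor, and shows only whether the genes changed unequally. Between cord and wild-type motor neurons the log2 ratio of Sod2 to Sod1, on their brightest probe sets, was higher by 0.999 and that of Ccs to Sod1 differed by -0.96. Neither pair of groups overlapped (exact p = 0.1, adjusted p = 0.129 over 9 ratios, which cannot pass 0.05). The ratio of Ccs was -3.49, -3.79 and -3.55 on the cord arrays, -4.68, -4.84 and -4.19 on the wild-type neuron arrays and -5.14, -5.38 and -5.19 on the mutant ones. All mutant values were the lowest and all cord values the highest. After quantile normalization, which gives all arrays the same distribution, the first difference for Ccs was -0.12.

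**Figure D4:**
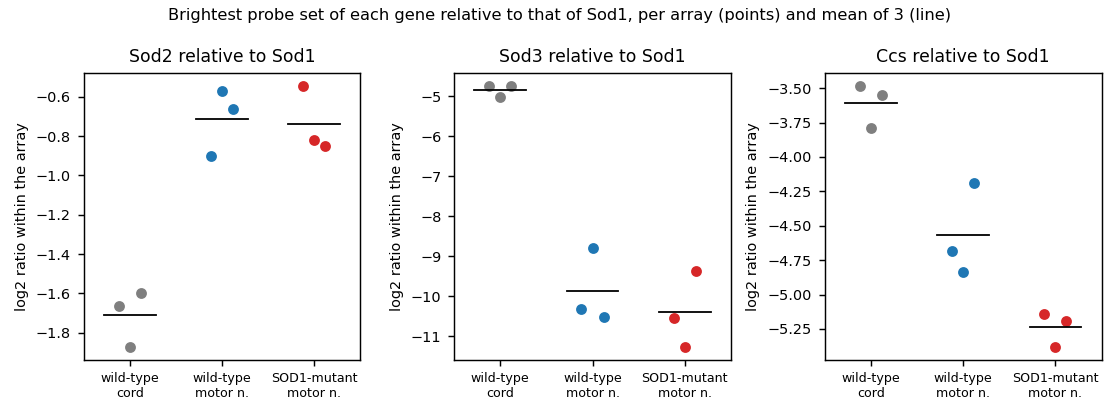
Log2 ratio of Sod2, Sod3 and Ccs to Sod1 within each array, brightest probe set of each gene, with the mean of 3 as a line; each panel has its own axis. Ratio levels of different probe sets have no meaning of their own, and only shifts between groups are read: Ccs steps down from cord to wild-type to mutant neurons with no overlap, while the neuron groups overlap for Sod2. The Sod3 panel rests on neuron signals mostly below background.

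Motor neurons of the mutant were then compared with those of the wild type, which asks how the captured samples of the genotypes differ. None of the 10 tested probe sets was called with limma, where 0.152% of all tested probe sets were called higher and 0.0703% lower, 0.222% in all (60 of 27022), and 1 of the 10 had an unadjusted p under 0.05, against 4117 of 27022 overall. Sod1 itself did not separate the genotypes. Its change was 0.14 ± 0.16 on 1451124_at (adjusted p = 0.698, 95% interval -0.20 to 0.49) and 0.05 ± 0.14 on 1459976_s_at (95% interval -0.25 to 0.35). The mutant array at 84714 lay below all wild-type neuron arrays and the other 2 above them, on both probe sets. The spread of Sod1 1451124_at was 24630 in mutant and 2537 in wild-type motor neurons (SD of signal, n = 3).

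Sod2 differed by 0.12 ± 0.14 on 1448610_a_at (95% interval -0.20 to 0.43) and by -0.21 ± 0.12 on 1417193_at (95% interval -0.48 to 0.07), with overlap on both. Within arrays this pair shifted by 0.32 with no overlap (exact p = 0.1, adjusted p = 0.204), the only 1 of the 17 pairs of Sod1, Sod2 and Sod3 probe sets that did not overlap between genotypes. Sod3 1417633_at, though among the 10, was above background on 1 of the 6 neuron arrays and gives no comparison of the genotypes.

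Ccs was the member whose genotypes did not overlap. All 3 mutant values, 2386 to 3266, lay below all 3 wild-type neuron values, 3527 to 5540, and 22.3% of tested probe sets were likewise without overlap. The change was -0.52 ± 0.22 (95% interval -1.02 to -0.03), with an unadjusted p of 0.0396 and an adjusted p of 0.304. Over the alternative settings it ranged from -0.74 to -0.32 with adjusted p from 0.000233 to 0.733. It was -0.32 without the wild-type neuron array at 5540, and its call came from array weights alone, a fit that called 13777 probe sets. Relative to Sod1 in the same array Ccs was lower by 0.67 in the mutant, again without overlap (exact p = 0.1, adjusted p = 0.129).

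Some other measures also separated these arrays. The summed signal of 10 astrocyte markers was 149146 to 162704 on wild-type and 182262 to 197608 on mutant neuron arrays, that of 9 oligodendrocyte markers 257428 to 269076 and 297530 to 327851, and that of 9 microglial markers 7304 to 7555 and 9325 to 10706. That of 11 motor neuron markers was lower on the mutant arrays, at 276662 to 289944 against 302613 to 315632. The sum of vascular and meningeal markers overlapped, at 10457 to 17024 on wild-type and 14448 to 18480 on mutant neuron arrays. The sums of inhibitory interneuron markers and of excitatory and dorsal horn markers overlapped too. Of these 28 glial and 11 motor neuron markers the gap junction gene Gja1 alone was called (1.25 ± 0.15, adjusted p = 0.0170). Background was highest, at 244, on a mutant array. The part of any of these in the Ccs values was not tested.

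The third comparison, mutant motor neurons against wild-type cord, shares its arrays with the first and second, so its values are given only side by side. Of the 10 tested probe sets, 4 were called higher and 3 lower, with 21.9% and 40.2% over all tested (62.1% in all), and 9 of the 10 did not overlap, with 70.0% over all tested. The changes were 1.22 ± 0.16 for Sod1 1451124_at, 1.64 ± 0.14 for Sod1 1459976_s_at, 2.19 ± 0.12 for Sod2 1448610_a_at and 1.34 ± 0.10 for Sod2 1417193_at. Sod2 1417194_at changed by -0.89 ± 0.22 and was no longer called under quantile normalization (-0.05) or centring (-0.04). Sod2 1454976_at changed by -0.44 ± 0.15 (adjusted p = 0.0323), a call lost without an intensity trend (adjusted p = 0.0762, same change) and without cord array 1 or 3 or mutant array 2 or 3 (-0.42 to -0.33), and its sign turned under centring (0.41). Sod3 1417633_at was at least 7.85-fold lower, against the background level.

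Near the threshold, Sod1 1440222_at differed from cord by 0.65 ± 0.25 in mutant neurons (adjusted p = 0.0532) and Ccs by -0.41 ± 0.16 (adjusted p = 0.0543). All 3 mutant values of Ccs were below all 3 cord values. Ccs was called lower with the filter at the 60th percentile (-0.41, adjusted p = 0.0487) and with array weights (-0.27, adjusted p = 0.0197). It was also called lower without mutant array 2 (-0.47, adjusted p = 0.0366). Its change became 0.003 after quantile normalization and 0.44 after centring, so its sign against cord depended on the scaling. Sod1 1440222_at was called higher under both of these, at 1.51 after quantile normalization.

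Sod1 and Ccs need copper, which enters by Slc31a1, is handed on by chaperones, is pumped out by the Atp7 proteins and is held by metallothioneins. All 14 genes of a list of copper uptake, export and chaperones were tested on their brightest probe sets. In wild-type motor neurons 6 were higher and 7 lower than on cord arrays, against 31.1% and 36.1% of the 12983 genes tested (67.3% in all), with a median of -0.23 against -0.10. Slc31a2, a low-affinity copper transporter of internal vesicles, was 3.93-fold lower (-1.97 ± 0.21), Cox19, a chaperone of the mitochondrial copper route, 2.70-fold higher (1.43 ± 0.08), and the metallothionein Mt1 2.23-fold lower (-1.16 ± 0.13). Atox1, the chaperone that serves the copper pumps, was named after its values were seen and rose by 1.07 ± 0.14. The uptake gene Slc31a1 was not called (0.14 ± 0.14). The split depended on scaling, with 7 higher and 4 lower after quantile normalization and 8 and 1 after centring.

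In mutant against wild-type motor neurons none of the 14 was called, where 0.254% of all genes were called, 0.169% higher and 0.0847% lower. The 2 of highest mean, the metallothioneins Mt1 and Mt2, differed by 0.55 ± 0.27 (adjusted p = 0.362) and 0.46 ± 0.29 (adjusted p = 0.478).

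Of 7 other copper enzymes tested, 5 were lower than cord and none higher in wild-type motor neurons under each of the 3 scalings, against 36.1% lower and 31.1% higher over all genes on the authors' scale, with a median of -2.69. Dbh and Loxl3 were not called. The ferroxidase gene Cp was at least 26.5-fold lower, below background on all 3 wild-type neuron arrays. Cp passed the filter through its signal in cord (mean 4426, against 69.6 in wild-type motor neurons), so it had to come out lower. The count of 5 includes it. Lox, which cross-links collagen, was 12.7-fold lower (-3.67 ± 0.31). Its mean of 183 in wild-type motor neurons lay just under the filter level of 185, against 2655 in cord. Lox thus passed the filter largely through cord, and the count of 5 includes it as well. Heph, another ferroxidase, was lower too (-3.63 ± 0.73, with 2 of 3 neuron arrays above background). Vascular and meningeal markers fell beside them: 12 of 12 tested were lower, with a median of -3.04 and a summed signal of 88189 to 176223 on cord arrays and 10457 to 17024 on wild-type neuron arrays. Some of these markers, such as Myh11, also passed the filter only through cord. The part of these markers in the values of Sod3 and of these enzymes was not tested. Between the genotypes none of the 7 was called. Pam, which amidates peptides, differed by -0.29 ± 0.25 (adjusted p = 0.623) and Heph by 2.11 ± 0.78 (adjusted p = 0.247).

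**Figure D5:**
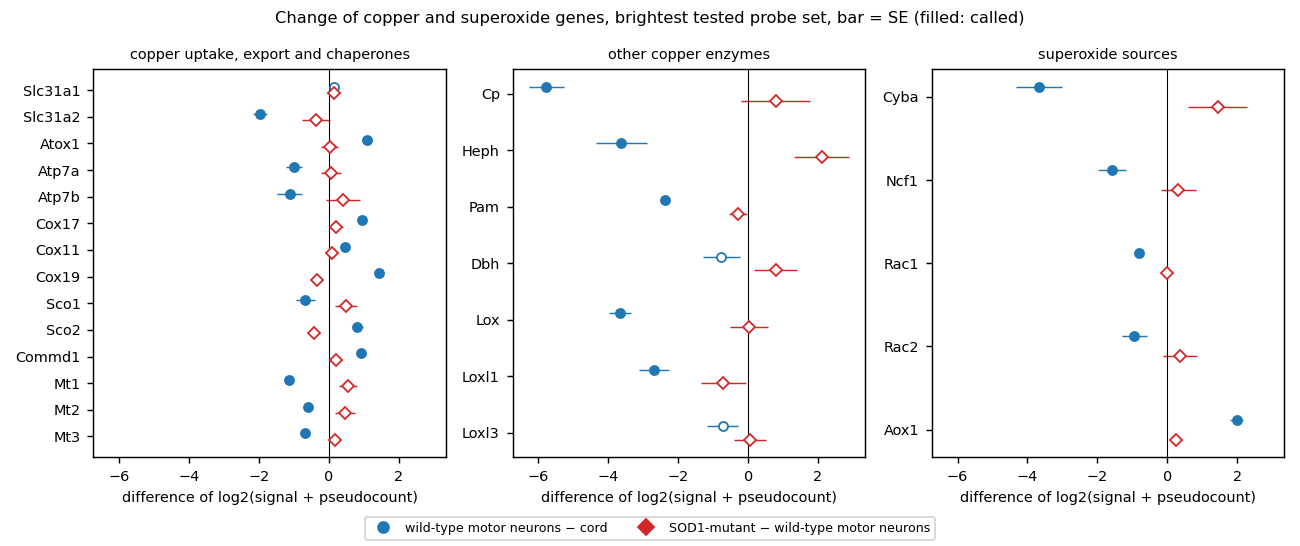
Difference of log2(signal + pseudocount), with the SE as a bar, for the copper and superoxide-source genes on their brightest tested probe set, wild-type motor neurons minus cord (blue circles) and mutant minus wild-type motor neurons (red diamonds); filled symbols were called. No red symbol is filled, and the blue point for Cp rests on neuron signals below background.

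Of 14 listed genes that make superoxide or help to make it, 10 were on the array and 5 were tested. The oxidase subunit gene Cyba was lower in wild-type motor neurons than in cord (-3.68 ± 0.67), a size that rests on 1 of 3 neuron arrays above background. Ncf1, a cytosolic subunit of the phagocyte oxidase, was lower by 1.58 on the log2 scale, and Aox1, an aldehyde oxidase, was 3.96-fold higher (1.99 ± 0.19). In all 1 was called higher and 4 lower, against 31.1% and 36.1% over all genes, which became 1 and 2 after quantile normalization and 1 and 1 after centring. None was called between the genotypes.

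Genes that remove the peroxide made by the dismutases, or help to remove it, were mostly higher in captured neurons. Of 18 listed, 15 had a probe set assigned to them alone, and Prdx1, Prdx5 and Prdx6 did not. All 15 were tested, and 11 were higher and 2 lower in wild-type motor neurons, against 31.1% and 36.1% over all genes. Their median was 0.82, against -0.10 over all genes. The counts were 12 and 2 after quantile normalization and 14 and 1 after centring. The thioredoxin gene Txn1 was 4.10-fold higher (2.04 ± 0.10) and Gclm, a subunit of the enzyme that starts glutathione synthesis, 3.49-fold (1.80 ± 0.09). Gpx7, a peroxidase of the endoplasmic reticulum, was lower (-2.72 ± 0.59, with 2 of 3 neuron arrays above background). Mutant neurons against cord had 9 higher and 1 lower, where 28.4% and 35.3% of all genes were (63.7% in all). Between the genotypes none of the 15 was called, and the 2 of highest mean, Txn1 and the lipid peroxidase gene Gpx4, differed by -0.06 ± 0.13 and 0.07 ± 0.13.

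Profiles over the 9 arrays were compared with each member's by the root mean square difference of centred log2 values, among 23171 tested probe sets with 1 gene. Predicted genes, RIKEN clones, accession-like names and other members were passed over, and the 3 nearest of the remaining genes are named. For Sod1 they were Vdac1 (0.0447), Atad3a (0.0553) and Ndufa6 (0.0616), and for Sod2 Ints5 (0.0623), Hars (0.0624) and Ndufa5 (0.0635). For Ccs they were Adprhl2 (0.125), Asb1 (0.141) and Cog8 (0.147), and for Sod3 Per3 (0.292), Elavl1 (0.406) and Tom1l1 (0.422). The Sod3 ranking rests largely on neuron values at or below background and has little meaning beyond the drop from cord. Between members the difference was 0.483 for Sod1 and Sod2, 0.694 for Sod1 and Ccs, and 1.12 for Sod2 and Ccs. It was 2.01 to 3.03 for Sod3 and each of the others. The nearest genes were picked for their small differences, so the larger ones between members say nothing about the members. These values describe 9 arrays in 3 groups and share the same group differences.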

How the data were processed

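The authors deposited 1 linear intensity value per probe set and array. The sources used here do not give the software. Deposited intensity values have a trimmed mean of 2500 on every array, with 2% taken off each end. After 64 controls were removed, log2(value + 20.3) was taken, the pseudocount being the 10th percentile, so folds of dim probe sets are understated. The 27022 probe sets above the 40th percentile of mean log2 value over the 3 groups were tested. Each comparison was fitted on its 6 arrays with limma 3.58.1 in R 4.3.3 (intensity trend, two-sided, Benjamini-Hochberg), checked on simulated data. Ratios and probe set pairs used exact permutation tests. Background was the 95th percentile of 27 Bacillus subtilis probe sets. A fold against a group below background is "at least", from the mean log2 values against background or the measured value, whichever is higher. Members and gene lists were chosen with earlier results of these data known. All members were named, from each pathway list up to 3 called genes of largest change, otherwise the 2 of highest mean, some fixed markers, and 3 nearest profiles per gene, of which the text describes some. A gene was read by its brightest tested probe set. Alternatives were scaling, filter, pseudocount, 9 arrays in 1 fit, no trend, array weights, replicate block, values raised to background, and leaving out each array. Figures used matplotlib 3.10.9 and Python 3.11.15.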

Additional observations from a re-analysis of the deposited data

How the results depend on the processing

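Member calls stayed at 8 and 7 of 10 under the replicate block against cord, and at 0 between the genotypes, where the block moved the calls over all probe sets from 60 to 443 and the alternatives together gave 3 to 13777. The replicate numbers were not taken as a pairing, since deviations of same-numbered arrays correlated at -0.003 to 0.031 for wild-type motor neurons and cord, 0.002 to 0.171 for the neuron groups (2 of 3 over 0.1) and -0.043 to 0.017 for mutant motor neurons and cord. Leaving out each array gave 8 calls, 0 calls and 6 to 8 calls in the 3 comparisons. Of the values of single member probe sets under the alternatives, 161 of 169 were counted as unchanged for wild-type motor neurons against cord. The counts were 163 of 169 between the genotypes and 146 of 169 for mutant motor neurons against cord. Values counted so kept their side of the threshold, but an uncalled value could change sign. Sod1 1459976_s_at did so between the genotypes, from 0.05 to -0.06 without mutant array 2. Sod2 1454976_at turned to 0.44 and 0.41 against cord when arrays were centred on their medians, whose construction adds the gap between array medians. Array weights gave 5 member calls between the genotypes, 1 higher and 4 lower, in a fit that did not fully converge, and the cause was not tested. Quantile normalization moved the within-array ratios to Sod1 to 1.21 for Sod2, -3.65 for Sod3 and -0.12 for Ccs in wild-type motor neurons against cord, and to 1.20, -4.29 and -0.62 in mutant motor neurons against cord, and a pseudocount 4 times larger moved the last Sod3 ratio to -4.74. The 3 arrays per group limit the precision, and values near background limit Sod3.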
